A study of Homo sapiens with 6 samples.

Results

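The expression of 10 genes of the TGF-beta pathway was followed in the human myeloma line KMS27: the ligand TGFB1, the receptors TGFBR1, TGFBR2 and BMPR2, the signal-carrying SMAD2, SMAD3 and SMAD4, the inhibitory SMAD7, and the SMAD-binding repressors SKI and SKIL. They were chosen by symbol, which gave 10 gene IDs with 85 transcripts, of 63677 genes and 215170 transcripts in the deposited table. KMS27 is an established myeloma line, grown from malignant plasma cells. Total RNA depleted of ribosomal RNA was sequenced from 3 libraries labelled wild type and 3 labelled HA-TAZ, in which TAZ with an HA peptide tag was overexpressed. TAZ, the product of WWTR1, is a coactivator downstream of Hippo signalling that acts through TEAD transcription factors. The titles of the wild type samples also carry HA, the labels do not say whether the control cells received a construct, and neither the vector, the promoter nor the number of clones is given. Nothing in the labels says that the 3 libraries of a group came from separate cultures, so p-values measure only the spread between these libraries, which may be technical. The control columns are named scr, a name in no label, and were taken as wild type because they are the remaining columns; they are called control a, b and c.

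TGF-beta is secreted in a latent form and, once released, binds a type II receptor kinase (TGFBR2), which phosphorylates the type I receptor (TGFBR1). The type I receptor phosphorylates SMAD2 and SMAD3, which enter the nucleus with SMAD4 and act on target genes. SMAD7 is itself a target and shuts off the receptor, SKI and SKIL (SnoN) bind SMADs and recruit corepressors, and BMPR2 is the type II receptor of the related BMP ligands. TGF-beta restrains growth of many lymphoid cells, and TAZ can bind SMAD2, SMAD3 and SMAD4 complexes.

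WWTR1 had a scaled TPM of 338.6, 316.1 and 328.8 in HA-TAZ 1, 2 and 3 and of 2.22, 2.03 and 1.60 in control a, b and c, so the libraries matched their labels. TPM is an abundance per transcript length, relative to the library total, and scaled TPM is that value divided by a factor per library, which was 0.866, 0.967 and 0.890 in HA-TAZ 1 to 3 and 1.21, 1.09 and 1.06 in control a to c. TPM sums to the same total in each library and carries no depth of its own. The estimated counts implied by the authors' deposited table sum to 52795484 for a typical library. A difference below is on the scale of log2(scaled TPM + 1), HA-TAZ minus control, tested with limma and adjusted by Benjamini-Hochberg over 22651 genes with a mean of at least 1 TPM. With the TPM as deposited the median difference of all tested genes was -0.27, against -0.03 after scaling. The 3 HA-TAZ libraries thus held less TPM of most genes before scaling, and members that look lower as deposited are read against that shift.

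None of the 10 genes was called between HA-TAZ and control. Of the 8 genes above the filter, 0 passed an adjusted p of 0.05 and 1, SMAD2, had an unadjusted p below 0.05, where 7.29% of all tested genes were called in either direction and 30.7% had an unadjusted p below 0.05. The median difference of the 8 was -0.03, equal to that of all tested genes. The groups did not overlap in scaled TPM for 1 of the 8, against 38.5% of all tested genes. TGFBR2 and SMAD3 lay below 1 TPM on average and were not tested. These shares do not set these genes apart from the background.

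**Figure D1:**
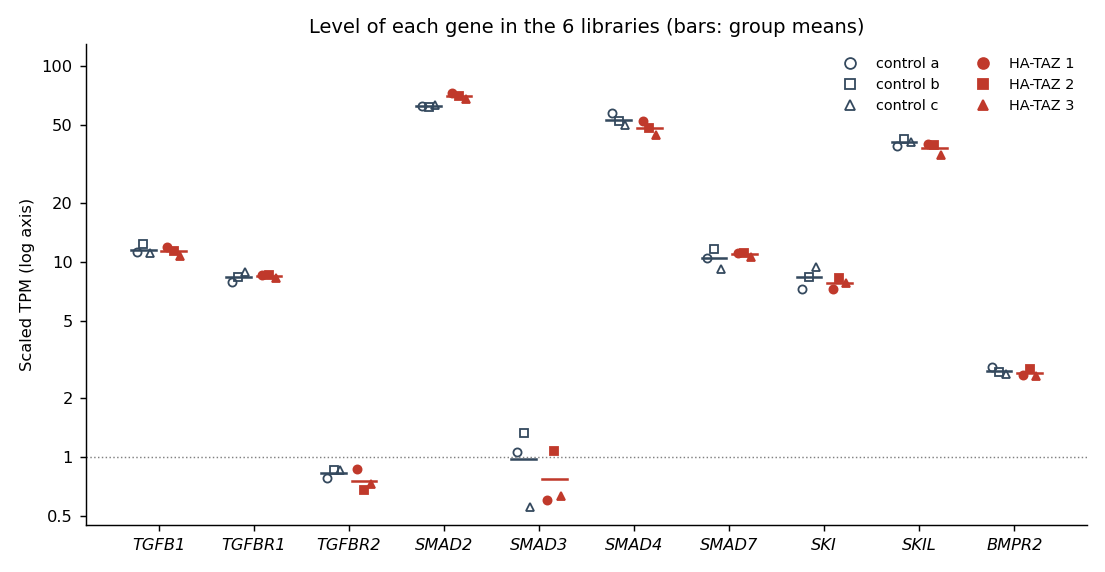
Scaled TPM (log axis) of the 10 genes in each library, open symbols for control and filled ones for HA-TAZ, with bars at the group means. The dotted line is the filter at 1 TPM, with TGFBR2 under it in every library and SMAD3 on both sides, and SMAD2 is the gene whose groups do not overlap.

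The levels are per length and summed over all transcripts of a gene, partial models included. In scaled TPM they ranged from a mean of 0.759 for TGFBR2 to 70.4 for SMAD2 in the HA-TAZ libraries. SMAD2 was highest in both groups, followed by SMAD4 and SKIL, and these 3 did not overlap with each other within a group. TGFB1 and SMAD7 followed with overlapping ranges, then TGFBR1 and SKI, whose ranges also overlapped. The control ranges of SMAD7 and SKI touched as well. BMPR2 stood alone near 2.7, and TGFBR2 and SMAD3 overlapped at the bottom. Over transcripts with a complete coding sequence the order is another one. As deposited, their mean TPM over the 6 libraries was 29.3 for SMAD2, 26.9 for SKIL and 9.85 for TGFB1. It was 6.71 for TGFBR1, 5.58 for SKI and 5.18 for SMAD4.

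TGFB1 (ENSG00000105329), the ligand, had a scaled TPM of 11.9, 11.4 and 10.6 in HA-TAZ 1, 2 and 3 and of 11.2, 12.3 and 11.1 in control a, b and c. Values of the 2 groups alternate, with the highest in control b and the lowest in HA-TAZ 3. The difference was -0.02 with a 95% interval from -0.20 to 0.15 (limma, adjusted p = 0.851). Most of its level, 85.2%, sat on the transcript ENST00000221930.5 with the complete coding sequence.

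The type I receptor TGFBR1 (ENSG00000106799) had a scaled TPM of 8.55, 8.55 and 8.27 with HA-TAZ and of 7.89, 8.35 and 8.88 in control a, b and c. The HA-TAZ libraries lie inside the range of the controls. Its difference was 0.01, with a 95% interval from -0.15 to 0.18 (limma, adjusted p = 0.911). The type II receptor TGFBR2 (ENSG00000163513) was far lower than TGFBR1, at 0.869, 0.681 and 0.728 with HA-TAZ and 0.785, 0.856 and 0.855 in the controls. Scaled values of TGFBR2 overlap, while as deposited the HA-TAZ libraries (0.752, 0.659 and 0.647 TPM) all lie below the controls (0.949, 0.933 and 0.904 TPM). The estimated counts implied by the authors' deposited table were 116.4 and 108.0 for the 2 TGFBR2 transcripts, so the gene was low but counted. BMPR2 (ENSG00000204217) had a scaled TPM of 2.62, 2.82 and 2.61 with HA-TAZ and 2.91, 2.71 and 2.67 in control, with overlapping groups. The difference of BMPR2 was -0.03, with a 95% interval from -0.24 to 0.18 (limma, adjusted p = 0.821).

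Of the receptor-activated SMADs, SMAD2 (ENSG00000175387) was far above SMAD3 (ENSG00000166949). SMAD2 had a scaled TPM of 73.1, 70.3 and 67.7 in HA-TAZ 1, 2 and 3 and of 62.9, 61.9 and 63.4 in control a, b and c. Every HA-TAZ library lies above every control. The ratio of the means was 1.12 and the difference 0.16 with a standard error of 0.04 and a 95% interval from 0.05 to 0.27, which did not pass the threshold (limma, unadjusted p = 0.0106, adjusted p = 0.076). This direction depends on the scaling. The difference was -0.14 with TPM as deposited and -0.04 over transcripts with a complete coding sequence, which were scaled by their own factors. SMAD3 had a scaled TPM of 0.607, 1.07 and 0.636 with HA-TAZ and of 1.07, 1.32 and 0.558 in control a, b and c. The lowest of the 6 SMAD3 values and the highest both belong to controls, so the spread within a group exceeds the distance between the means of 0.772 and 0.983. The 3 genes whose profile over the 6 libraries was most like that of SMAD2 were SLC35A5 (Pearson r = 0.998), SNX8 (r = 0.997) and TXN (r = 0.997), a description over 6 points that share their scaling factors.

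The common partner SMAD4 (ENSG00000141646) had a scaled TPM of 52.4, 48.1 and 44.5 with HA-TAZ and of 57.4, 52.8 and 49.8 in control a, b and c. HA-TAZ 1 lies within the control range, so the groups overlap. The difference was -0.14, with a 95% interval from -0.34 to 0.06 (limma, adjusted p = 0.295). As deposited the TPM of SMAD4 did not overlap between the groups and the difference was -0.44 (limma, adjusted p = 0.057). TGFB1, TGFBR1, TGFBR2, SKI, SKIL and BMPR2 also lay below the controls without overlap as deposited. The median difference of all tested genes as deposited was -0.27. Only 8.56% to 11.1% of the SMAD4 TPM in a library was on transcripts with a complete coding sequence.

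The inhibitory SMAD7 (ENSG00000101665) had a scaled TPM of 11.1, 11.1 and 10.6 with HA-TAZ and of 10.4, 11.6 and 9.21 in control a, b and c. The HA-TAZ values lie within the control range, and the difference was 0.07 with a 95% interval from -0.16 to 0.29 (limma, adjusted p = 0.647). It took the other sign with TPM as deposited (-0.21), with scaling over genes of at least 5 TPM (-0.0049) and over complete coding transcripts with their own scaling (-0.21).

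SKI (ENSG00000157933) had a scaled TPM of 7.28, 8.29 and 7.79 with HA-TAZ and of 7.22, 8.35 and 9.36 in the controls, with overlap and a difference of -0.08 (95% interval -0.34 to 0.18, limma, adjusted p = 0.647). Its paralogue SKIL (ENSG00000136603), present at a higher level, had 40.04, 39.4 and 35.0 with HA-TAZ and 39.0, 42.5 and 40.8 in control. HA-TAZ 1 and 2 lie within the control range of SKIL and HA-TAZ 3 below it. The difference of SKIL was -0.09, with a 95% interval from -0.26 to 0.07 (limma, adjusted p = 0.386). With TPM as deposited SKIL was the single member called, at -0.39 (limma, adjusted p = 0.043), beside the median of -0.27 for all genes. The share of all genes called as deposited was not counted, so this call is no result about the members.

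**Figure D2:**
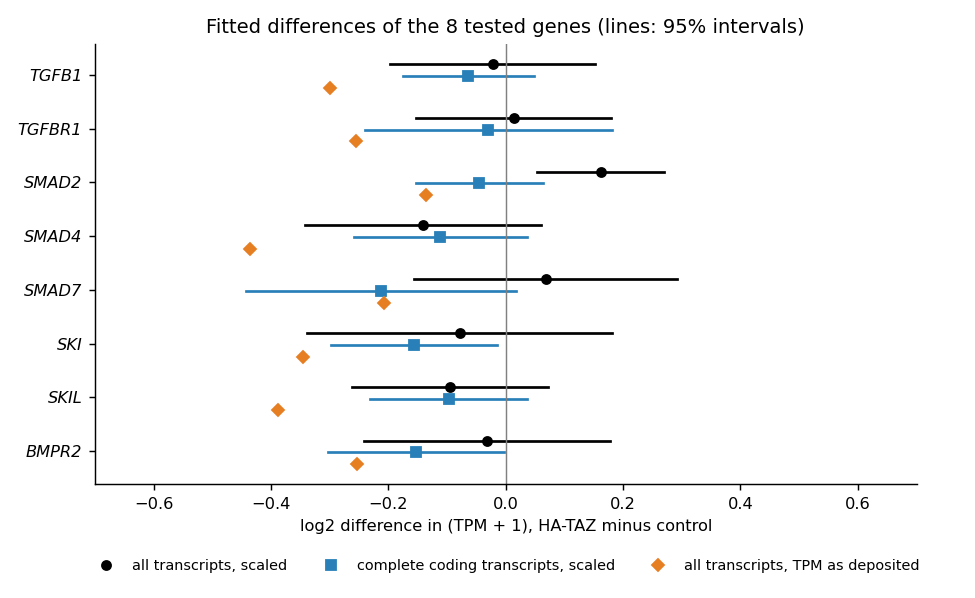
Fitted log2 differences (HA-TAZ minus control) of the 8 tested genes, with 95% intervals for the sums over all transcripts and over complete coding transcripts. SMAD2 is at 0.16 in the first and -0.04 in the second, each with its own scaling factors, and every value as deposited lies below 0.

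Total RNA holds unspliced and partly processed RNA, so the sums were repeated over the transcripts whose coding sequence is complete in GENCODE release 29, a choice made after seeing the data. By that rule 30 of the 85 transcripts remained, and 0 of the 8 tested members were called, where 21.7% of 10069 genes were (limma, adjusted p below 0.05, scaled over the same sums). SKI was at -0.16 (adjusted p = 0.099) and BMPR2 at -0.15 (adjusted p = 0.12), the smallest adjusted p-values of the members in this limma fit. For SKI the values were 5.10, 5.02 and 5.44 with HA-TAZ against 6.01, 6.10 and 5.57 in control, all lower with HA-TAZ. Its only such transcript, ENST00000378536.4, had 5.56, 5.27 and 5.64 against 5.44, 5.84 and 5.29 with the main factors. There the groups overlap, with a difference of -0.01 (limma over all tested transcripts, adjusted p = 0.972), and only the scaling is different. For BMPR2 the sums were 2.22, 2.37 and 2.17 against 2.78, 2.58 and 2.50, again without overlap. With the main factors its transcript ENST00000374580.4 overlapped, at -0.02 (limma, adjusted p = 0.934). TGFB1 and TGFBR2 were also lower without overlap in these sums. The only complete coding transcript of TGFB1 was at 0.10 with the main factors and -0.06 here. The share of all genes without overlap was not computed for these sums. SKIL had more of its TPM on such transcripts with HA-TAZ (67.6%, 73.5% and 74.2%) than in control (66.8%, 59.5% and 64.6%), also without overlap. The share of SMAD2 on such transcripts was 42.9%, 43.8% and 43.0% with HA-TAZ and 44.0%, 43.8% and 44.9% in control, a mean gap of about 1 percentage point.

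Single transcripts of the members were tested next. Of the 85, 41 had a mean of at least 1 TPM, 0 were called by limma and 8 had an unadjusted p below 0.05, 3 higher and 5 lower, where 0.534% of all tested transcripts were called and 24.1% had an unadjusted p below 0.05. The authors' deposited table gave statistics for 61 of them and a q-value below 0.05 for 5, 3 higher and 2 lower with HA-TAZ, where 5.68% of all its transcripts had one. Of those 5, 4 belong to SMAD2 and 1 to SMAD4. Read against that 5.68%, the count is no result about the members. The 5 are described because those of SMAD2 split by direction within the gene.

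SMAD2 exon 3 is the best known coding difference of this gene, because the segment it adds to the MH1 domain keeps full-length SMAD2 from binding DNA directly. SMAD3, and the SMAD2 form without this exon, bind DNA. The exon is shown first, with 15 flanking bases on each side in lower case and the exon in capitals, then the join of the transcripts that skip it. It lies at chr18:47870475-47870564 on the minus strand of GRCh38, from GENCODE release 29, has 90 bases and 30 codons, and is the exon that distinguishes ENST00000262160 (coding length 1401) from ENST00000356825 (1311).
SMAD2 exon 3: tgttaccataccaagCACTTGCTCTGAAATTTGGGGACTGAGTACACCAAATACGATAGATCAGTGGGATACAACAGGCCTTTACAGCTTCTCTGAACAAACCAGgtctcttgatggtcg
SMAD2 without exon 3: tgttaccataccaaggtctcttgatggtcg

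The transcript ENST00000586514.1, a model with an incomplete coding sequence, carried 41.8% of the SMAD2 TPM. Its scaled TPM was 33.4, 31.1 and 29.5 with HA-TAZ and 23.8, 25.2 and 25.3 in control, without overlap. The difference was 0.32 (limma, adjusted p = 0.0957), and the authors' deposited table gave it a natural-log effect of 0.24 with q = 0.040. ENST00000586040.1, a complete coding transcript without exon 3, had 21.0, 19.2 and 18.6 with HA-TAZ and 13.4, 13.9 and 14.7 in control. Its difference was 0.45 (limma, adjusted p = 0.0748), with a natural-log effect of 0.35 and q = 4.1e-05 in the authors' deposited table. Both of these transcripts were higher with HA-TAZ in every library.

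Other SMAD2 transcripts went the other way. ENST00000591214.1, also without exon 3, had a scaled TPM of 3.32, 3.97 and 3.34 with HA-TAZ and 5.76, 5.32 and 6.01 in control. The difference was -0.56 (limma, adjusted p = 0.0735), and the authors' deposited table gave -0.46 with q = 0.0031. ENST00000262160.6, the full-length transcript with exon 3, had 3.16, 3.49 and 3.57 with HA-TAZ and 5.15, 3.98 and 4.44 in control. Its difference was -0.32 (limma, adjusted p = 0.158), with an effect of -0.26 and q = 0.049 in the authors' deposited table. ENST00000356825.4, full length without exon 3, had means of 3.50 and 3.28 with overlapping groups. By the estimated counts implied by the authors' deposited table the order of these models is another one, with 3097 for ENST00000262160.6, 2332 for ENST00000356825.4, 1971 for ENST00000586040.1 and 1165 for ENST00000586514.1, since TPM divides by length and the last 2 models are short.

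The 2 exon-3-less transcripts that moved in opposite directions also differ in their first exon, and at the 3′ side they part at a splice site, at the end of the exon at chr18:47845340-47845484 (minus strand, GRCh38). The last 15 bases they share are in lower case and the next 15 of each in capitals. In ENST00000591214 the exon reads on into the intron and in ENST00000586040 it joins the next exon, and in both models these bases are still coding.
SMAD2 ENST00000591214: gggagcagaataccgGTATGAAATACATAT
SMAD2 ENST00000586040: gggagcagaataccgAAGGCAGACGGTAAC
The ratio of the first to the second was 0.158, 0.207 and 0.180 with HA-TAZ and 0.429, 0.383 and 0.408 in control. The groups are far apart, but the pair was picked for this difference, so it is a description without a test. The same holds for ENST00000262160 to ENST00000586514, at 0.0948, 0.112 and 0.121 with HA-TAZ against 0.216, 0.158 and 0.176.

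For exon 3 as a whole, 9 SMAD2 transcripts hold it and 3 skip it. The 3 that skip it held 38.2%, 37.6% and 37.7% of the SMAD2 TPM with HA-TAZ and 35.9%, 36.9% and 37.1% in control a, b and c. The groups do not overlap, by a gap of 1.19 percentage points between the means of 37.8% ± 0.30 and 36.6% ± 0.69 (SD, n = 3). In an exact permutation test, two-sided, p was 0.1, which is the floor for 3 against 3 libraries, and 0.5 after Benjamini-Hochberg adjustment over the 5 segments compared. Such shares rest on how reads were divided among overlapping models, and by implied counts of the authors' deposited table the skipping share was 50.8%.

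**Figure D3:**
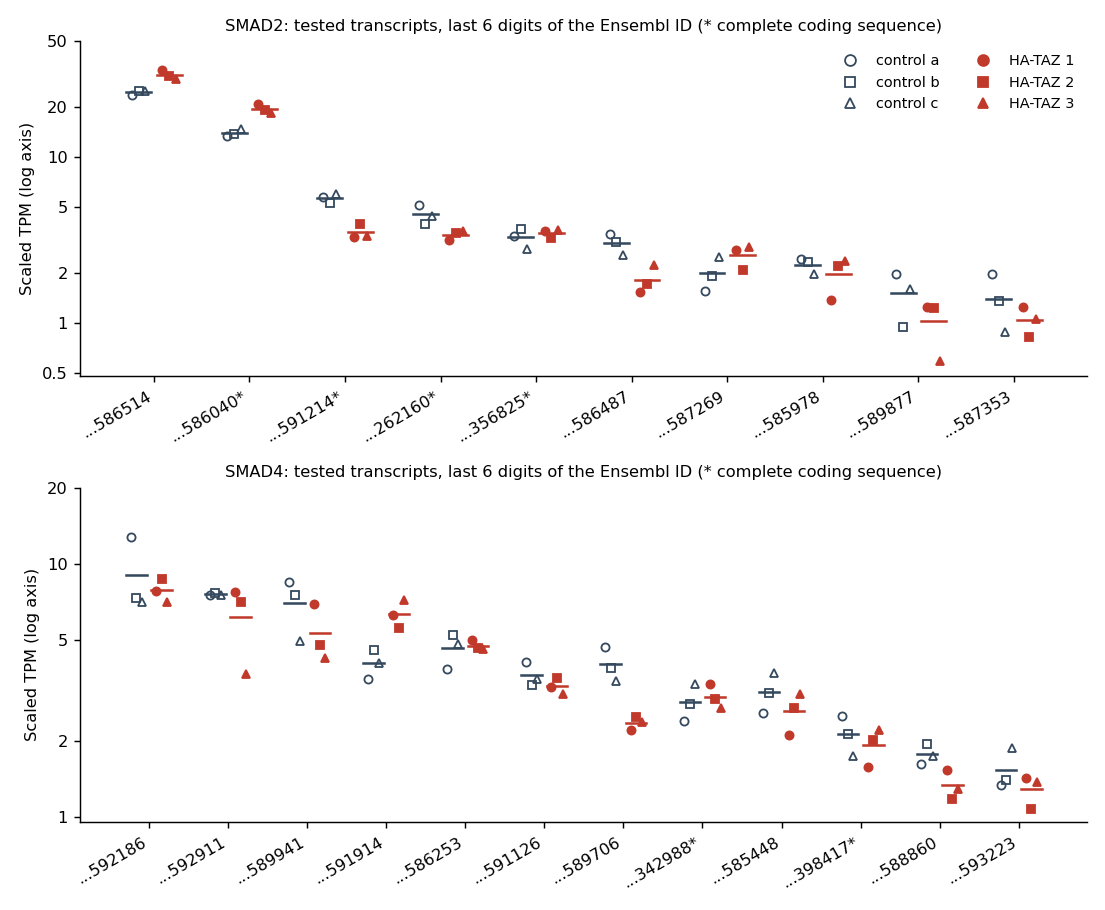
Scaled TPM (log axis) of the tested SMAD2 and SMAD4 transcripts by library, highest first, with bars at the group means. In SMAD2 the first 2 transcripts are higher with HA-TAZ in all 3 libraries and the next 2 are lower. In SMAD4 the transcripts ENST00000591914.1 and ENST00000589706.1 lie apart between the groups in opposite directions.

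SMAD4 showed the same kind of split among partial models. ENST00000591914.1, with an incomplete coding sequence, had a scaled TPM of 6.28, 5.58 and 7.22 with HA-TAZ and 3.52, 4.56 and 4.07 in control. The difference was 0.54 (limma, adjusted p = 0.0942), with a natural-log effect of 0.46 and q = 0.040 in the authors' deposited table. ENST00000589706.1, annotated as a retained intron, had 2.21, 2.49 and 2.37 with HA-TAZ and 4.68, 3.89 and 3.46 in control. Its difference was -0.57 (limma, adjusted p = 0.0851), and the authors' deposited table gave -0.52 with q = 0.051. The 2 complete coding transcripts of SMAD4 above the filter, ENST00000342988.3 and ENST00000398417.2, overlapped between the groups, with differences of 0.05 and -0.09. The estimated counts of these full-length transcripts implied by the authors' deposited table, 1677 and 1124, were higher than those of the partial models, at 267.7 and 74.3.

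Of the other members, SKIL held the one further transcript with an unadjusted p below 0.05. ENST00000465590.1, a processed transcript, was at 1.47, 0 and 0 with HA-TAZ and 4.17, 4.52 and 1.63 in control, and as some libraries list it at 0, no fold is given. The 2 main coding transcripts of SKIL were level, with a ratio of ENST00000259119 to ENST00000458537 of 1.02, 1.19 and 1.15 with HA-TAZ and 1.15, 1.07 and 1.14 in control.

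Coding segments that members include or skip were compared in the same way, for TGFBR1, TGFBR2 and SKIL. The TGFBR1 segment of 12 bases at chr9:99132497-99132508 adds 4 codons, and the TGFBR2 exon of 75 bases at chr3:30623199-30623273 adds 25 codons to the ligand-binding side. The SKIL segment of 138 bases at chr3:170384628-170384765 holds 46 codons that the short form lacks. All 3 are on the plus strand of GRCh38 from GENCODE release 29, and the segment is in capitals with 15 bases on each side.
TGFBR1 segment: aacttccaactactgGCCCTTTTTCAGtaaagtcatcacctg
TGFBR2 exon: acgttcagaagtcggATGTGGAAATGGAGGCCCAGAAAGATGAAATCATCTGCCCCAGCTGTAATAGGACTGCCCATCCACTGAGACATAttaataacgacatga
SKIL segment: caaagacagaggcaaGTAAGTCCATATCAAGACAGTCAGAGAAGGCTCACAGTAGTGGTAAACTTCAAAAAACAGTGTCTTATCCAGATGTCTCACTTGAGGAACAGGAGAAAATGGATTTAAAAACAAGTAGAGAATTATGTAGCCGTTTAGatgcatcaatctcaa

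Both forms of each were present. Transcripts without the 12 bases held 51.9%, 56.7% and 52.6% of the classed TGFBR1 TPM with HA-TAZ and 50.2%, 48.7% and 60.8% in control, with overlap (exact permutation p = 1.0). By the implied counts of the authors' deposited table that share was 30.3%. The TGFBR2 transcript without the 75 bases held 69.6%, 55.0% and 48.0% with HA-TAZ and 70.6%, 40.6% and 26.6% in control, a spread within the controls wider than the gap between the means (exact permutation p = 0.5). The short SKIL form held 7.15%, 6.71% and 3.46% with HA-TAZ and 9.20%, 5.13% and 2.94% in control (exact permutation p = 1.0), and 2.97% by the implied counts of the authors' deposited table. A larger TGFBR1 exon of 231 bases that follows the 12-base segment was skipped by 15.8% ± 6.43 with HA-TAZ and 12.8% ± 4.11 in control (SD, n = 3, exact permutation p = 0.5).

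Ratios of 2 members within a library do not depend on the scaling between libraries, and 6 were compared. The ratio of SMAD4 to the sum of SMAD2 and SMAD3, the partner to the receptor-activated SMADs, was 0.711, 0.674 and 0.651 in HA-TAZ 1, 2 and 3 and 0.898, 0.834 and 0.778 in control a, b and c. Every HA-TAZ library lies below every control, a log2 difference of -0.30. With only the highest transcript of each gene the groups overlapped (HA-TAZ 2 at 0.278 and control c at 0.277) and the difference was -0.48 (exact permutation p = 0.2). For the sums over all transcripts the two-sided exact permutation p was 0.1, the least that this design can reach. It was 0.45 after Benjamini-Hochberg adjustment over the 6 ratios. Transcripts of SMAD2 and SMAD4 with incomplete coding sequence make up most of this ratio. Over complete coding transcripts the groups overlapped for each of the 2 genes, with differences of -0.11 for SMAD4 and -0.04 for SMAD2, and the ratio was not compared.

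The other 5 ratios overlapped between the groups. TGFBR1 exceeded TGFBR2 by 9.84, 12.6 and 11.4 times with HA-TAZ and 10.1, 9.75 and 10.4 times in control (exact permutation p = 0.3). SMAD2 exceeded SMAD3 by 121, 65.5 and 106 times with HA-TAZ and 59.0, 46.8 and 114 times in control (exact permutation p = 0.3). The inhibitor SMAD7 was 15.1 ± 4.20 times SMAD3 with HA-TAZ and 11.7 ± 4.19 times in control (SD, n = 3, exact permutation p = 0.2). SKIL was 4.92 ± 0.52 times SKI with HA-TAZ and 4.95 ± 0.54 times in control (SD, n = 3, exact permutation p = 1.0). BMPR2 was 3.58 ± 0.56 times TGFBR2 with HA-TAZ and 3.33 ± 0.32 times in control (SD, n = 3, exact permutation p = 0.7).

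**Figure D4:**
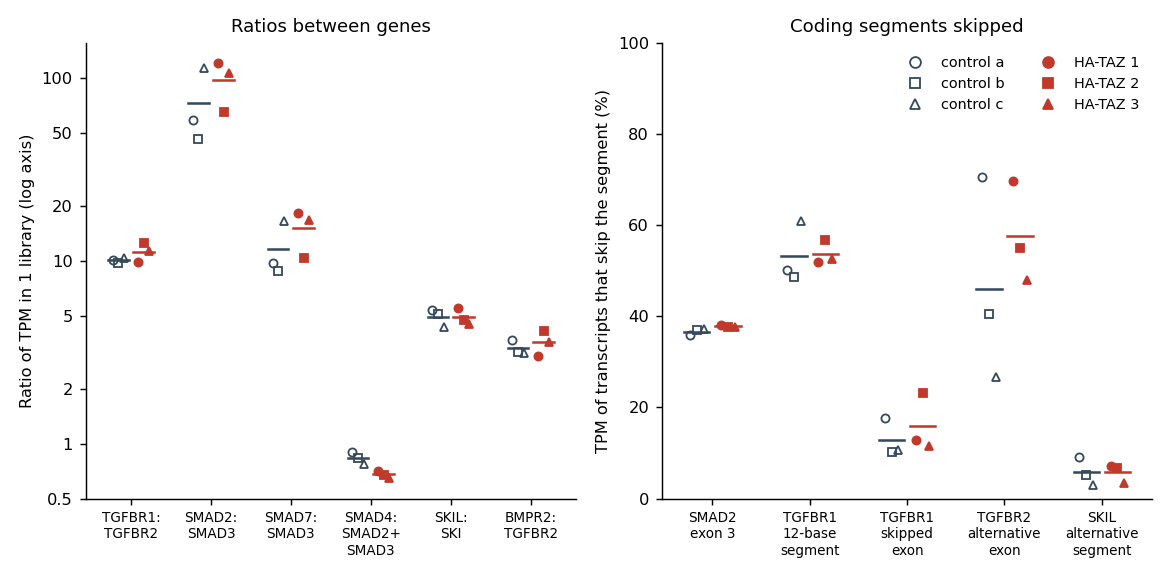
Left, ratios of TPM between members in each library (log axis); right, the percentage of TPM on transcripts that skip a coding segment, with bars at the group means. The ratio of SMAD4 to SMAD2 plus SMAD3 and the exon 3 share of SMAD2 are the 2 quantities whose groups do not overlap, and TGFBR2 spreads from 26.6% to 70.6%.

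The rest of the pathway was covered by 8 lists with 100 gene IDs outside the members, of which 65 were tested. Of these, 6 were higher and 1 was lower with HA-TAZ (limma, adjusted p below 0.05), where 4.67% of all tested genes were called higher and 2.63% lower. At an unadjusted p below 0.05, 16 were higher and 2 lower, 18 of 65 in all, near the 30.7% of all tested genes. Their median difference was 0.07, against -0.03 for all tested genes. Leaving out any 1 of the 6 libraries left 2 or 3 called higher and 0 lower, and TPM as deposited gave 3 higher and 5 lower. The shares of all genes called in those fits were not counted.

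Target genes held 4 of the 6. Of 15 tested, 4 rose and 0 fell, 10 were higher and 0 lower at an unadjusted p below 0.05, and the median difference was 0.27. Of all tested genes 4.67% were called higher and 16.6% were higher at an unadjusted p below 0.05. BHLHE40, a transcriptional repressor, had a scaled TPM of 11.3, 11.2 and 9.89 with HA-TAZ and 2.66, 3.10 and 3.38 in control, a difference of 1.54 (limma, adjusted p = 0.0033). JUNB, an AP-1 subunit, had 43.8, 37.1 and 42.1 with HA-TAZ and 12.8, 15.8 and 16.7 in control, a difference of 1.39 (limma, adjusted p = 0.0069). CDKN2B, the CDK inhibitor p15 that mediates growth arrest by TGF-beta in epithelial cells, had 15.8, 16.4 and 16.6 against 8.75, 7.79 and 10.1, a difference of 0.81 (limma, adjusted p = 0.0149). GADD45B, a stress-response protein, had 43.4, 38.7 and 40.1 against 30.5, 31.3 and 32.5, a difference of 0.36 (limma, adjusted p = 0.031), which was 0.07 with TPM as deposited (adjusted p = 0.407). BHLHE40 and JUNB passed the threshold in all 13 alternative fits, CDKN2B in 8 and GADD45B in 4. CDKN2B missed it without HA-TAZ 1, 2 or 3, control a or control b, with limma adjusted p-values from 0.052 to 0.070, and GADD45B without any 1 of the 6 libraries, from 0.060 to 0.10. These genes also respond to signals other than TGF-beta.

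The members SMAD7 and SKIL are targets of the pathway as well and, as given above, were not called. CTGF, a matrix-associated target of both TGF-beta and TAZ that is named here after its values were seen, was below the filter, at 0.0603 TPM on average. It was among 9 of the 24 target genes below 1 TPM.

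**Figure D5:**
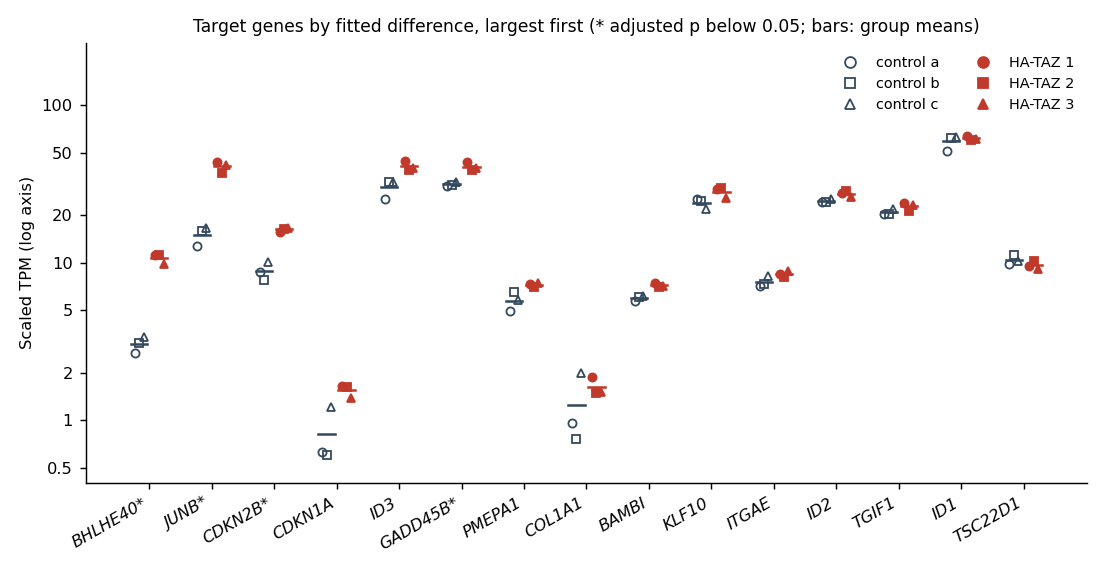
Scaled TPM (log axis) of the 15 tested target genes by library, ordered by fitted difference, with bars at the group means. BHLHE40, JUNB, CDKN2B and GADD45B, marked with an asterisk, are higher in every HA-TAZ library than in every control. So are PMEPA1, ID2, ID3, CDKN1A, KLF10 and BAMBI, which were not called. The groups do not overlap for 10 of the 15, against 38.5% of all tested genes.

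In the other lists few genes passed. At an unadjusted p below 0.05 (limma) were 2 of 9 ligands, 5 of 9 receptor adaptors and 1 of 12 gene IDs for turnover. The share of all tested genes was 30.7%. Of the 5 receptor adaptors 4 were higher and 1 lower, and the median difference of that list was 0.23. Of 9 tested ligands 1 fell, LEFTY2, an antagonist of NODAL, at 2.04, 2.01 and 2.16 with HA-TAZ and 3.26, 3.54 and 3.90 in control, a difference of -0.57 (limma, adjusted p = 0.033). Of 9 tested receptor adaptors 1 rose, FKBP1A, which binds the type I receptor and keeps it from signalling without ligand. Its scaled TPM was 191, 181 and 174 with HA-TAZ and 160, 150 and 152 in control, a difference of 0.24 (limma, adjusted p = 0.048), and -0.06 with TPM as deposited (adjusted p = 0.643). Of 12 tested gene IDs for turnover 1 rose, STUB1, a ubiquitin ligase, at 32.3, 30.1 and 33.4 against 22.4, 24.8 and 25.6, a difference of 0.38 (limma, adjusted p = 0.039), which was 0.09 as deposited (adjusted p = 0.261). Without any 1 of the 6 libraries, LEFTY2, FKBP1A and STUB1 each missed the threshold, with limma adjusted p-values from 0.063 to 0.147. SMURF2 appears in that list under 2 gene IDs with equal values, so its level is uncertain.

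No gene was called by limma among the 7 other tested receptors, the 2 other tested SMADs, the 8 cofactors and the 6 genes of latency and activation. At an unadjusted p below 0.05 these lists held 1, 0, 0 and 1. Among receptors, ACVR1B, a type I receptor for activin, had a scaled TPM of 10.7 ± 0.33 with HA-TAZ and 11.3 ± 0.46 in control (SD, n = 3), and the pseudoreceptor BAMBI had 7.21 ± 0.19 and 5.996 ± 0.21. The BMP-responsive SMAD5 had 19.9 ± 1.09 and 20.5 ± 0.55, and SMAD1 had 10.9 ± 0.48 and 12.4 ± 1.05. The coactivator CREBBP had 36.4 ± 0.67 and 37.6 ± 1.47, and SNW1 had 35.6 ± 2.49 and 33.7 ± 0.87. LTBP4, which stores latent TGF-beta in the matrix, had 12.02 ± 1.81 and 12.9 ± 2.18, and NRROS, which holds it on cells, had 10.8 ± 0.37 and 9.34 ± 0.35.

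Of the promoters, RefSeq windows of GRCh38.p14 from 250 bases before to 50 after a start covered 9 members in 24 windows, and no promoter sequence is shown since no difference rests on one. Searched on both strands, the SMAD palindrome GTCTAGAC was in no window of a member and in 0.202% of 35116 windows. GGAATG, bound by TEAD factors, was in 1 of the 24 member windows, of TGFBR1, and in 14.0% of all windows. The AP-1 motif TGANTCA was in 2 of the 24, of SMAD3 and TGFBR2, and in 7.71% of all. The half-site GTCTG was in 11 of the 24, from 5 members, and in 45.3% of all. These are letter matches only.

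All 8 plasma cell markers were above the filter, and the markers of other cell types were low but not all below it. Above it were 2 of 6 fibroblast, 2 of 5 epithelial, 1 of 5 T cell and 1 of 5 myeloid markers. Their mean TPM was 2.29 for DCN, 1.42 for COL1A1, 3.08 for KRT8, 1.11 for CDH1 and 1.49 for CD3G. The summed TPM of the 8 as deposited was 2777 to 3210 with HA-TAZ and 4266 to 4821 in control, carried mostly by IGJ. After scaling, the 8 markers had a median difference of -0.07, with 1 higher and 2 lower at an unadjusted p below 0.05. SDC1 had 106, 92.8 and 107 scaled TPM with HA-TAZ and 66.0, 82.6 and 88.1 in control, a difference of 0.37 (limma, adjusted p = 0.107), and IGJ a difference of -0.33 (limma, adjusted p = 0.065). XBP1 was also above the controls in every HA-TAZ library after scaling, at the nearest by 145.03 against 144.93, with a difference of 0.06 (limma, adjusted p = 0.354). As deposited XBP1 was lower in every HA-TAZ library, with a difference of -0.24 (limma, adjusted p = 0.049). CD38 was the plasma cell marker called after scaling, lower with HA-TAZ. It had 9.96, 11.4 and 10.8 against 15.3, 17.9 and 17.3 scaled TPM, a difference of -0.61 (limma, adjusted p = 0.0226). The 6 fibroblast markers summed to 3.54 to 4.31 TPM with HA-TAZ and 3.85 to 5.18 in control, the 5 T cell markers to 1.52 to 1.53 and 2.39 to 2.52, the 5 myeloid markers to 2.74 to 3.36 and 2.54 to 3.06, and the 5 epithelial markers to 2.78 to 3.90 and 4.99 to 6.08. Every HA-TAZ library listed CD3D and KRT19 at 0, where the controls had 0, 0.148 and 0.075 TPM of CD3D and 0, 0.012 and 0 of KRT19. Every control listed LUM at 0, where the HA-TAZ libraries had 0.221, 0.241 and 0.153 TPM. The part of the plasma cell markers in the values above was not tested. In bulk RNA, fewer cells with a transcript and less RNA per cell cannot be told apart.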

How the data were processed

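Transcript abundances were estimated with kallisto 0.46.0 and compared with sleuth 0.30.0 on GRCh37, per the submitters' processing notes; the annotation release and the strand setting are not given in the sources used here. The authors deposited TPM per transcript and library. They also deposited p-values and q-values per transcript and, as a natural log, its effect and its mean of scaled estimated counts.

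TPM was summed per gene ID and divided by a median-of-ratios factor over 21512 genes above 0 in all libraries. Genes or transcripts with a mean of at least 1 TPM were tested with limma 3.58.1 (R 4.3.3, intensity trend, pseudocount 1, two-sided, Benjamini-Hochberg, threshold 0.05), a script checked on simulated data. Differences understate changes of genes near the pseudocount. Single values used an exact permutation test (scipy 1.17.1), which cannot go below 0.1. Tables were handled with pandas 2.3.3 under Python 3.11.15, and plots drawn with matplotlib 3.10.9.

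Transcript structures come from GENCODE release 29 on GRCh38, matched by ID without version, which held 84.7% of the transcripts; its versions mostly differ from those quantified. Complete coding means protein-coding without a missing start or end. Promoter windows are from RefSeq.

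The members, lists and tests were chosen with earlier results of these data known. All 10 members were described. Of each pathway list, genes past the threshold, up to 6, or otherwise the 2 with the highest mean TPM, were named, with the 3 genes most correlated with the member of smallest adjusted p and WWTR1. The transcripts, segments and transcript ratios described were chosen after their values were seen. Alternatives were the scaling, pseudocount, level filter, trend, sums per symbol and leaving out each library. Protein sequences were not used here.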

Additional observations from a re-analysis of the deposited data

How the results depend on the processing

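No paired analysis was possible because the control columns cannot be tied to the numbered samples. With TPM as deposited 1 member was called (SKIL), the pathway genes called were 3 higher and 5 lower, and signs turned for TGFBR1 (-0.26), SMAD2 (-0.14), SMAD7 (-0.21) and FKBP1A (-0.057). Scaling over genes of at least 5 TPM turned TGFBR1 (-0.058) and SMAD7 (-0.0049). Complete coding transcripts, a choice made after seeing the data and scaled by their own factors, turned TGFBR1 (-0.029), SMAD2 (-0.045) and SMAD7 (-0.21). Without the trend 3 pathway genes were called higher. No filter and a filter at 5 TPM gave 0 called lower, the latter because LEFTY2 was no longer tested. At 5 TPM 2 member transcripts were called, ENST00000586514.1 and ENST00000586040.1, with fewer transcripts tested. Over all alternative fits their differences fell as low as 0.034 and 0.17. Except for complete coding transcripts, the share of all genes or transcripts called in the alternative fits was not counted, so these counts have no background beside them. The highest transcript only turned the log2 differences of TGFBR1 to TGFBR2 (-0.36), SKIL to SKI (0.072) and BMPR2 to TGFBR2 (-0.31). Otherwise the cause was not tested.

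Leaving out 1 library called 2 to 3 pathway genes higher and 0 lower, with fewer samples. The differences then ranged from -0.057 to 0.021 for TGFB1, -0.024 to 0.052 for TGFBR1, -0.011 to 0.14 for SMAD7 and -0.16 to 0.0017 for SKI. The log2 ratios ranged from -0.10 to 0.056 for SKIL to SKI and -0.016 to 0.21 for BMPR2 to TGFBR2. The skipping differences, in percentage points, ranged from -1.80 to 4.29 for the 12-base segment and -0.70 to 5.37 for the larger exon of TGFBR1, and from -1.39 to 1.74 for the SKIL segment. The ratio of SMAD4 to SMAD2 plus SMAD3 lay between -0.35 and -0.25 (-0.48, with overlapping groups, with the highest transcript only), and SMAD2 exon 3 between 0.799 and 1.44 points. Depth per library is unknown, and 3 libraries a group limit every interval.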
